A study of Mus musculus with 4 samples.

Results

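The genes described here are 36 genes of DNA replication and mitosis, chosen by name as the helicase, polymerase, cyclin and mitotic genes of a cycling fetal tissue, out of 21887 protein-coding mouse genes. All 36 symbols were found in the RefSeq gene table for GRCm38.p6, which shares its coordinates with mm10. They were split into broad classes, with the genes of origin licensing and of the step from G1 into S placed under S phase. S phase held 21 genes (Mcm2 to Mcm7, Cdc6, Cdt1, Gins1, Gins2, Pcna, Pola1, Pole, Rrm1, Rrm2, Tyms, Ccne1, Ccne2, Cdk2, E2f1 and E2f2) and G2/M held 13 (Ccna2, Ccnb1, Ccnb2, Cdk1, Aurka, Aurkb, Plk1, Bub1, Birc5, Cdc20, Mki67, Top2a and Foxm1). The D-type cyclin genes Ccnd1 and Ccnd2 were kept apart.

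Open chromatin was measured by ATAC-seq, which reads where the transposase Tn5 can insert adapters into DNA, in 4 libraries of whole lung from wild-type mouse embryos at E15.5. The 4 libraries formed 1 group, so there was no contrast between conditions, and nothing in the labels tied a library to an embryo, a pool of embryos or a litter. Every SD given below is therefore the spread between these libraries, which may be technical. Each library came as its own peak list, and replicates 1 to 4 held 134503, 186199, 211678 and 192842 peaks outside unplaced contigs. Replicate 1 stood apart, with the fewest peaks and a median fold enrichment of 8.99 against 3.73 to 3.90 in the others. Its peak names began with the word Frais and those of the other lists with Frozen, although the labels describe snap-freezing for every sample. All 12 lung regulators checked (among them Nkx2-1, Foxf1, Tbx4 and Sox9) had a peak at a gene end in every library, as did 3 of 8 liver products, and Alb, Ttr and Fgb had none in any library. In bulk tissue, a promoter open in few cells and one less open in many cells cannot be told apart, so no value below is a measure of how many cells were cycling.

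A cell licenses its replication origins before S phase, when CDC6 and CDT1 load the ring of MCM2 to MCM7 onto DNA. Cyclin E with CDK2 then drives origin firing, the GINS complex completes the active helicase, and the polymerases copy DNA around the sliding clamp PCNA. Genes of this step are classically controlled by E2F factors, while many genes of G2 and mitosis carry a CHR element near CCAAT boxes, which are bound by the DREAM and MYB-MuvB complexes and by NF-Y. Branching fetal lung is a growing tissue in which epithelium and mesenchyme both divide.

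RefSeq promoter sequences of GRCm38.p6, reaching from 250 bases before to 50 bases after a start listed in RefSeq, were matched to 26 of the 36 genes, 16 of S phase and 10 of G2/M. The 10 genes not matched were Mcm4, Gins1, Gins2, Pole, Ccne2, Ccna2, Aurkb, Foxm1, Ccnd1 and Ccnd2. The RefSeq entry began at the outer end of the annotated gene, the start used for distances below, at 17 of the 26 genes. At 4 (Mcm5, Mki67, Top2a and Tyms) it began 10 to 71 bp inside the gene. At the other 5 it began further inside, 228 bp in Mcm7, 232 bp in Pola1, 316 bp in Aurka, 442 bp in Cdc6 and 466 bp in E2f1. The 250 bases before the start of Mcm6, Cdk1, Ccnb2 and Cdc20 are shown because they hold the sequence elements in which the phases differed most. Capitals mark matches to the E2F, CHR and CCAAT motifs on either strand, and each sequence is written 5′ to 3′ in the gene's own direction and ends at the base before its start.
Mcm6, chr1:128359706-128359955, minus strand: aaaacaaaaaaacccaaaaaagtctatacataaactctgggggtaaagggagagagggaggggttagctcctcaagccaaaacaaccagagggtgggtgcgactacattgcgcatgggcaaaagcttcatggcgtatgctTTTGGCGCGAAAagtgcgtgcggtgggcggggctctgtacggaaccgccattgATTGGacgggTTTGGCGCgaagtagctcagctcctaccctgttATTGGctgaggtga
Cdk1, chr10:69352913-69353162, minus strand: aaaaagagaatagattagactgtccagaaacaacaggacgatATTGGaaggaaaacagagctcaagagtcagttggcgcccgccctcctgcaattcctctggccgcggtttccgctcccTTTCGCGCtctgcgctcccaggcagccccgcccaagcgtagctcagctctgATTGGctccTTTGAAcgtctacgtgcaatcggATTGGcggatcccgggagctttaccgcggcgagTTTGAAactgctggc
Ccnb2, chr9:70421555-70421804, minus strand: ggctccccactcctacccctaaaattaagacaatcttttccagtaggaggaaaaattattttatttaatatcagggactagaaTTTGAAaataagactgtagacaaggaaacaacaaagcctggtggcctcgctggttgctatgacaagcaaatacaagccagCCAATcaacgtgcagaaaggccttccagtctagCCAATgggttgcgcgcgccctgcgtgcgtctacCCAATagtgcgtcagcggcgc
Cdc20, chr4:118437344-118437593, minus strand: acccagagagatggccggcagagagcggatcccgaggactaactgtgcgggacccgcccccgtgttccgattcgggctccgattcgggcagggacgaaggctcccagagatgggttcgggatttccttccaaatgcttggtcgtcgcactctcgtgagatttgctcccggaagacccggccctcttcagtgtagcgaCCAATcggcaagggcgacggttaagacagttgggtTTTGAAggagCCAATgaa

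E2F matches lay mainly in the S-phase promoters and CHR matches mainly in the G2/M promoters. The E2F motif was TTT, then CC, GG, CG or GC, then CGC. The CHR motif was TTTGAA or TTCGAA, of which the latter reads the same on both strands, and the other motifs were CCAAT and the GC box GGGCGG. Each was sought on both strands, so that CCAAT may read ATTGG above, and matches of different motifs were allowed to overlap. E2F matches were found in 9 of 16 S-phase promoters (Mcm3, Mcm5, Mcm6, Mcm7, Cdc6, Cdt1, Pola1, Cdk2 and E2f2) and in 1 of 10 G2/M promoters (Cdk1), against 2.94% of the promoters of 17492 protein-coding genes. Mcm6, a subunit of the replicative helicase, held 3, at positions -110, -106 and -47, where -1 is the base before the start of the RefSeq entry and 1 that start itself. The overlapping pair reads as 1 run of capitals above. CHR matches were found in 8 of 10 G2/M promoters and in 2 of 16 S-phase promoters (Mcm2 and Mcm7), against 18.2% of all promoters. The G2/M promoters without one were those of Ccnb1 and Birc5. Cdk1, the kinase of mitotic entry, held CHR at -71 and -15 with CCAAT at -208, -80 and -48, besides its E2F match at -131. Ccnb2, a B-type cyclin, held CCAAT at -87, -54 and -21 with CHR at -167 and, past the stretch printed, at position 5. Cdc20, the activator of the anaphase-promoting complex, held CHR at -18 between CCAAT at -53 and -8. Every promoter here with a CHR match also held CCAAT, so that 10 of 26 held both, against 7.47% of all promoters.

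CCAAT itself was found in 20 of 26 promoters, 11 of 16 in S phase and 9 of 10 in G2/M, against 39.2% of all. Birc5, encoding the survivin subunit of the chromosomal passenger complex, was the G2/M gene without it. Matches at several places were found in 13 of 26, 5 of 16 in S phase and 8 of 10 in G2/M, against 13.5% of all promoters. Top2a, the topoisomerase that untangles mitotic chromosomes, held 6 CCAAT and 4 CHR matches. The GC box was found in 21 of 26, 12 of 16 in S phase and 9 of 10 in G2/M, against 46.3%. The members' promoters had a median observed to expected CpG ratio of 0.944, against 0.577 over all promoters, and a median GC content of 57.8% against 56.3%. A match is a description of the letters and does not show that a factor was bound in lung.

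**Figure D1:**
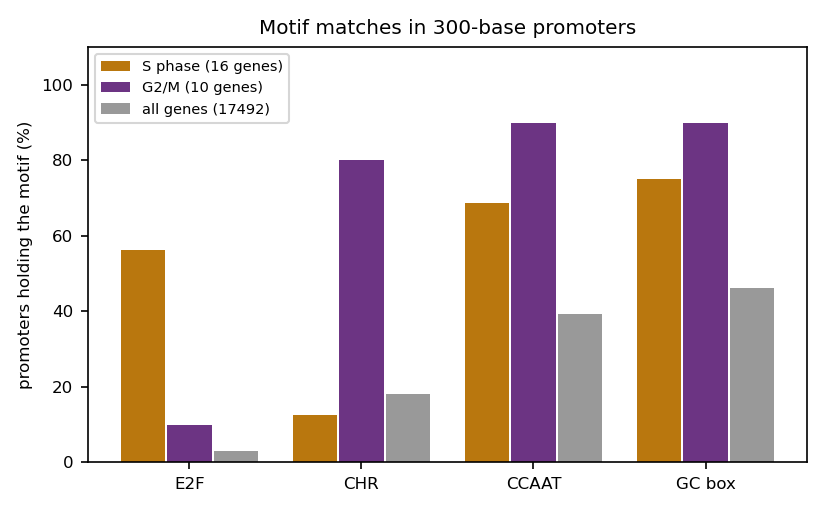
Share of RefSeq promoters of 300 bases (vertical axis, percent) that hold each motif, for 16 S-phase genes, 10 G2/M genes and 17492 protein-coding genes. E2F matches were in 9 of 16 S-phase and 1 of 10 G2/M promoters, and CHR matches in 2 of 16 and 8 of 10.

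All 36 genes were open at a gene end in every library. A gene was called open when each of the 4 lists had a peak within 1 kb of its lower or higher annotated end, a rule met by 66.7% of protein-coding genes. The height of a gene's strongest such peak was given as a percentile, its rank by the authors' fold enrichment among all peaks of the same library. The members' median percentile was 96.3, 98.2, 98.3 and 97.9 in replicates 1 to 4, a mean of 97.7 ± 0.943 (SD, n = 4). Among all genes with a gene-end peak the medians were 90.5, 95.1, 95.5 and 95.1, and among genes open in all 4 libraries they were 91.0, 95.6, 96.0 and 95.8. The members' median thus lay above both in each library. The members above the median of all genes with a peak in all 4 libraries numbered 26 of 36, against 30.4% of protein-coding genes. Among the 14602 genes open in all 4 libraries, 6647 were above it. Peaks at the 95th percentile or above in all 4 libraries were found at 23 of 36 members, against 21.9% of protein-coding genes. The share was 32.8% among genes open in all 4 libraries and 53.1% among 98 other cell cycle genes described below. The order of the members was similar between libraries, with Spearman's rho across the 36 genes from 0.929 to 0.974 over the 6 pairs of libraries. Genes are not replicates, and the libraries share these genes' sequence and annotation, so rho is a description.

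**Figure D2:**
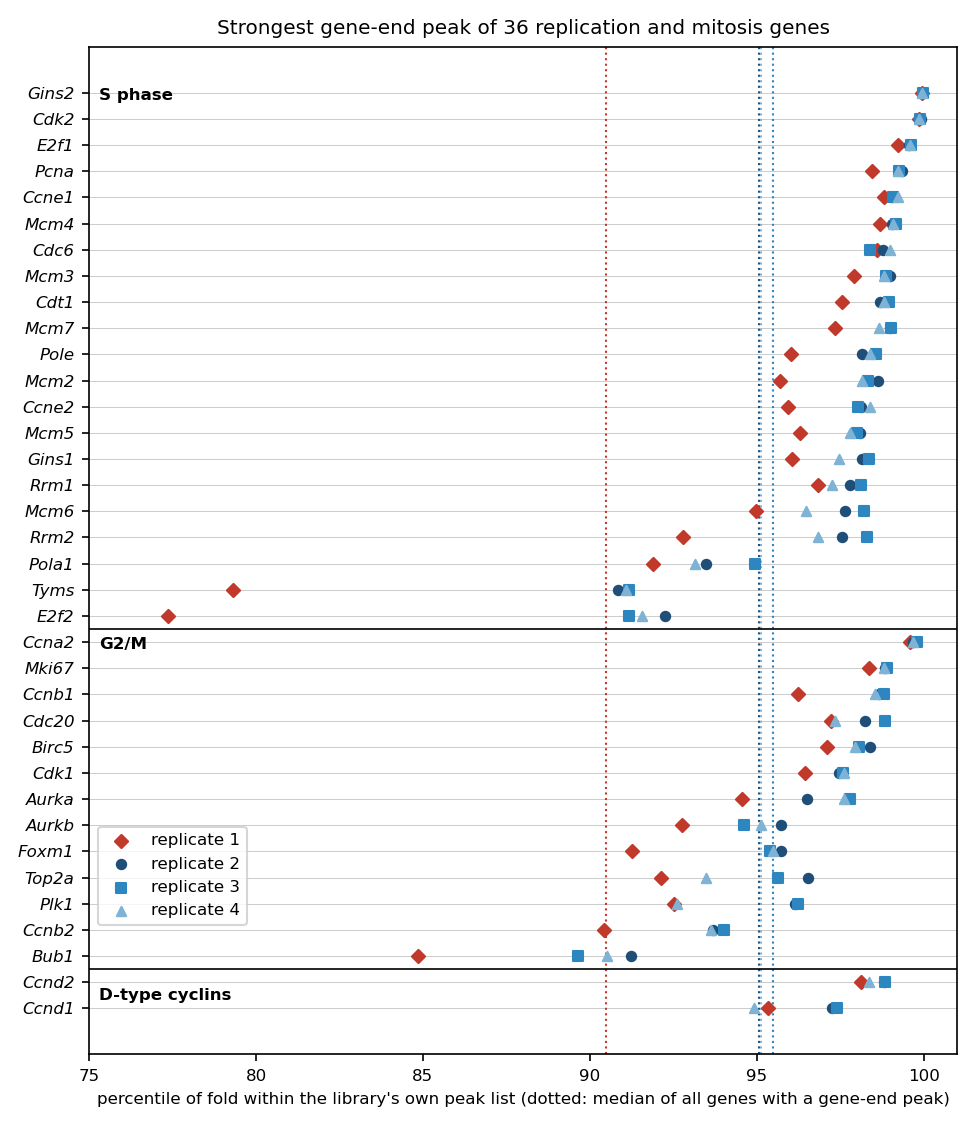
Percentile of fold of the strongest gene-end peak (horizontal axis) for each of 36 genes, with 1 marker per library and genes ordered by their mean within each phase. Dotted lines give the median of all genes with a gene-end peak in each library, 90.5 in replicate 1 and 95.1 to 95.5 in the others, and replicate 1 was the lowest library at 33 of 36 genes.

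The helicase genes were high throughout. Mcm4 ranked at 98.7, 99.1, 99.2 and 99.1 in replicates 1 to 4, through a peak at its higher end, which lies within 1 kb of an end of Prkdc, the gene of a DNA repair kinase. Mcm3 stood at 97.9, 99.0, 98.9 and 98.8. Mcm7, whose start is within 1 kb of an end of Ap4m1, stood at 97.3, 99.0, 99.0 and 98.7. The lowest mean of the helicase genes was that of Mcm6, at 94.98, 97.6, 98.2 and 96.5, and the other 5 passed the 95th percentile in every library. Mcm2 (mean 97.7 ± 1.35, SD, n = 4) and Mcm5 (97.5 ± 0.845) lay between them.

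Among the loading and GINS genes, Gins2 had the highest value of all members. Gins2, on chromosome 8 from 120581266 to 120589075, had fold enrichments of 490, 188, 164 and 162 in replicates 1 to 4 and percentiles of 99.95, 99.98, 99.98 and 99.97. The summit lay 209 to 225 bp from its higher end, where no other protein-coding gene end was within 1 kb. Cdt1, the loader of the helicase, stood at 97.6, 98.7, 99.0 and 98.8, and Gins1 at 96.1, 98.2, 98.4 and 97.5. Cdc6, the other loader, ranked at 98.6, 98.8, 98.4 and 99.0, but its strongest peak changed place between libraries. In replicates 2 and 3 the summit was within 27 bp of the annotated start. In replicate 1 it was 724 bp from the other end of the gene, and in replicate 4 it lay 13655 bp from the nearer end, inside a peak 23078 bp wide. The peak at the start of Cdc6 alone stood at 95.9, 98.8, 98.4 and 98.1.

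Genes of the polymerases and of nucleotide supply included high and low members. Pcna, the sliding clamp, stood at 98.4, 99.3, 99.3 and 99.2, at a start that lies within 1 kb of an end of Cds2. Pole, the catalytic subunit of the leading-strand polymerase, had a mean of 97.8 ± 1.19 (SD, n = 4). Pola1, the catalytic subunit of the priming polymerase and the 1 member on the X chromosome, was lower at 91.9, 93.5, 94.9 and 93.1. Both ribonucleotide reductase genes lay above the median of all genes with a gene-end peak in each library. Rrm1 stood at 96.8, 97.8, 98.1 and 97.3 and Rrm2 at 92.8, 97.5, 98.3 and 96.9. Tyms, thymidylate synthase, was at 79.3, 90.9, 91.2 and 91.1. In each library Tyms lay below the median of all genes with a gene-end peak.

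Among the G1/S regulators, the E2F activators were far apart. E2f1 stood at 99.2, 99.5, 99.6 and 99.6, whereas E2f2 stood at 77.4, 92.2, 91.2 and 91.6, so the E2f1 value was the higher of these E2F activators in every library. Ccne1 was at 98.8, 99.0, 99.1 and 99.2 and Ccne2 at 95.9, 98.1, 98.0 and 98.4. Cdk2, their kinase partner, ranked at 99.87, 99.92, 99.90 and 99.85, but through a peak whose summit lay 1518 to 1565 bp beyond the end of the gene opposite its start. That summit lay inside the RefSeq promoter of Rab5b. The peak at the start of Cdk2 itself stood at 95.2, 97.1, 97.2 and 96.8.

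In the G2/M group the A-type cyclin gene led. Ccna2, on chromosome 3 from 36564865 to 36573038, had fold enrichments of 277, 89.7, 88.3 and 82.8 and percentiles of 99.6, 99.7, 99.8 and 99.7. Its summit lay 841 to 878 bp from the higher end, which is within 1 kb of an end of Bbs7. Mki67, the proliferation marker Ki-67, stood at 98.4, 98.8, 98.9 and 98.8. Ccnb1 stood at 96.2, 98.7, 98.8 and 98.6, and Ccnb2, the other B-type cyclin, was lower in every library at 90.4, 93.7, 94.0 and 93.6. Cdk1, the kinase they activate, was at 96.4, 97.5, 97.6 and 97.6.

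The kinases and checkpoint genes of mitosis were lower. Bub1, a kinase of the spindle checkpoint, was the lowest of G2/M at 84.8, 91.2, 89.6 and 90.5, below the median of all genes with a gene-end peak in each library. Plk1, which acts at mitotic entry, stood at 92.5, 96.1, 96.2 and 92.6, with replicates 1 and 4 low. Aurkb (94.6 ± 1.29, SD, n = 4), Top2a (94.4 ± 2.02) and Foxm1 (94.5 ± 2.15), the transcription factor of the G2/M genes, were close to these. Aurka (96.6 ± 1.48), Birc5 (97.9 ± 0.547) and Cdc20 (97.9 ± 0.768) ranked higher. The Cdc20 value of replicate 3 came from a peak with its summit 4683 bp from the gene, and its start peak in that library stood at 98.7.

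S-phase members had a higher median than G2/M members in each library, by 0.797 to 2.27 percentile points. The medians were 96.8 and 94.6 in replicate 1, 98.6 and 96.5 in replicate 2, 98.4 and 97.6 in replicate 3, and 98.4 and 97.3 in replicate 4. The difference in replicates 1 to 4 was 2.27, 2.08, 0.797 and 1.07 points, a mean of 1.55 ± 0.730 (SD, n = 4). With only peaks of −log10 q of 5 or more the mean was larger, 2.85 points. At the annotated start alone, which could be read for 16 and 10 genes, it was 0.687, 1.36, 0.630 and 0.495 points, a mean of 0.792 ± 0.385, while the same 26 genes read at both ends gave 1.24 ± 0.509. In every library the ranges of the phases overlapped, from 77.4 to 99.95 in S phase and from 84.8 to 99.6 in G2/M in replicate 1. The members were chosen with earlier results of these data known and share their libraries, so no test was made of this difference. Values at the 95th percentile or above in all 4 libraries were reached by 16 of 21 S-phase genes and 6 of 13 G2/M genes. The shares of all genes and of open genes are given above. Outside the members the order was the reverse in each library. The medians of 38 other replication genes were 95.1, 97.5, 97.75 and 96.6 in replicates 1 to 4. Those of 32 other mitotic genes were 95.7, 97.7, 97.77 and 97.6. The 95th percentile was reached in all 4 libraries by 18 of the 38 and 19 of the 32. The difference is thus one of the chosen members and is not shown for the phases at large.

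**Figure D3:**
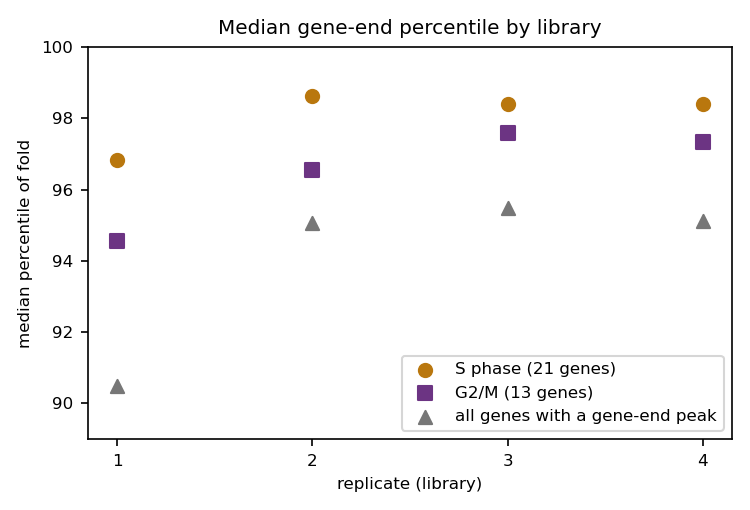
Median percentile of fold at gene ends (vertical axis) in each library, for 21 S-phase genes, 13 G2/M genes and all protein-coding genes with a gene-end peak. In every library the S-phase median was above the G2/M median, by 0.797 to 2.27 points, and both were above the median of all genes.

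Summits lay close to the annotated starts. The strongest gene-end peak had its summit within 1 kb of a gene end in all 4 libraries at 31 of 36 members. The exceptions were Cdc6, Cdc20, Ccne2, Cdk2 and Ccnd1. This held for 54.2% of protein-coding genes, a share that counts genes without a peak as failing. Of the 14602 genes open in all 4 libraries, 11872 met it. Another protein-coding gene end lay within 1 kb of the start at 3 of 26 members (Mcm7, Pcna and Aurka, the last beside Cstf1), against 15.3%. For all 26 genes whose start could be read, each library had a peak within 1 kb of that start, which held for 63.5% of 17492 genes. All 26 also had a summit within 1 kb of the start in each library, against 55.9%, and a peak over the 300-base RefSeq entry, against 61.7%. Of the 11105 genes with a peak within 1 kb of the start in each library, 9786 had such a summit. The median distance, averaged over libraries for each gene, was 77.6 bp, against 100.5 bp for the 9786 genes that met the rule. Summits of the 4 libraries fell within 100 bp of each other at 19 of 26 members, against 63.7% of those 9786 genes. The median summit position was -62, -67.5, -47 and -60 bp from the start in G2/M, negative being before it, and -7.5, -4.5, -23 and -8.5 bp in S phase. Summits before the start in all 4 libraries were found at 6 of 10 G2/M genes (Top2a, Mki67, Ccnb1, Cdc20, Bub1 and Birc5) and at 5 of 16 S-phase genes (Ccne1, E2f1, Cdt1, Pcna and Mcm3), against 38.2%. Summits after the start in all 4 were found at 6 of 26 members (Mcm2, Mcm7, Cdc6, Pola1, Aurka and Ccnb2), against 34%. Summits inside the 300-base RefSeq entry in all 4 libraries were found at 9 of 10 G2/M and 10 of 16 S-phase genes, against 31.1% of 17492. Of the 10796 genes with a peak over the entry in all 4 libraries, 5433 had a summit inside it. E2f1 and Cdc6, whose entries lie furthest inside the gene, had none there in any library.

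Several promoters showed the same position in each library. The summits of Birc5 were 60, 53, 52 and 72 bp before its start. Those of Ccne1 were 164, 175, 144 and 164 bp before it, and those of Cdt1 137, 119, 144 and 128 bp before it. Mcm7, Rrm2 and E2f2 varied most. Mcm7 had its summit 125 and 119 bp after the start in replicates 1 and 4 and 924 and 923 bp after it in replicates 2 and 3. Rrm2 had it 18 bp before the start in replicate 1 and 315 to 367 bp after it in the others, and E2f2 ranged from 192 bp before the start to 167 bp after it.

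**Figure D4:**
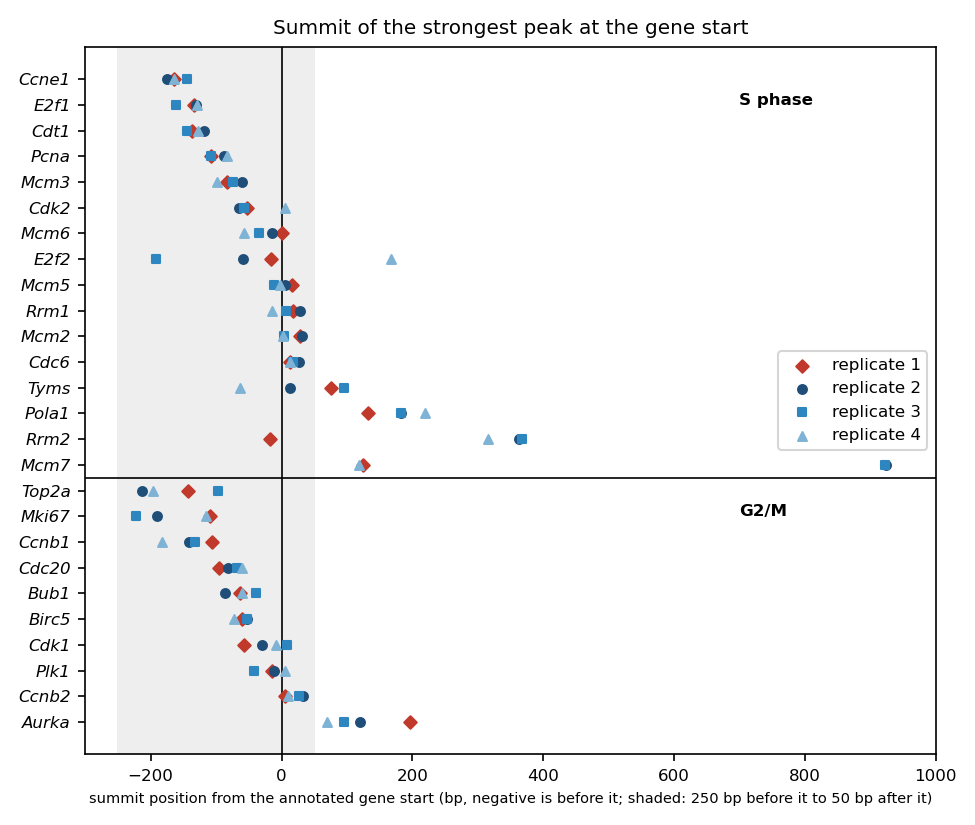
Position of the summit of the strongest peak at the gene start (horizontal axis, bp, negative before the start) in each library, for 16 S-phase and 10 G2/M genes, with 250 bp before to 50 bp after the annotated start shaded, which is not the RefSeq entry at the 9 genes whose entry begins inside the gene. At 19 of 26 genes the 4 summits fell within 100 bp of each other, and Mcm7, Rrm2 and E2f2 had the widest spread.

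Peaks at member genes were broader than at genes in general, though not than in every list, and those of the D-type cyclins were broader still. The median width was 1483, 2987, 2982.5 and 3229.5 bp in replicates 1 to 4, against 1123, 2084, 2187 and 2397 bp over all genes with a gene-end peak. It was similar at 28 other G1 regulators, at 1458, 3044, 2906 and 3163 bp. The 12 lung regulators were broader, at 3506, 4567, 4948.5 and 4651 bp. Medians of the other replication genes and of the other mitotic genes lay below the members' in each library. Ccnd1, on chromosome 7 from 144929931 to 144939831 and encoding the cyclin that links growth signals to the cell cycle, lay under peaks 4630, 11963, 9986 and 9106 bp wide. Their summits were 1649 to 1819 bp beyond its higher end, and its percentiles were 95.3, 97.3, 97.4 and 94.9. Ccnd2 had peaks 4680, 8377, 8365 and 9246 bp wide and stood at 98.1, 98.8, 98.8 and 98.4. Mcm2 had peaks of 8222 to 10663 bp in replicates 2 to 4 and of 1045 bp in replicate 1. Ccnb2 had the narrowest peaks of the cyclins, from 714 to 1404 bp.

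Around the members, open regions were about as frequent as around other open genes. Peaks within 100 kb of the gene had a median of 19, 38, 45 and 37 per member in replicates 1 to 4, against 21, 36, 44 and 38 for genes open in all 4 libraries and 17, 26, 31 and 28 for all genes. Overlapping peaks of the 4 lists were also merged, and merged regions with a peak of every library, more than 2 kb from any protein-coding gene end, were counted as shared distal regions. The members' median was 2.34 per 100 kb searched, against 1.95 for all genes, 2.62 for genes open in all 4 libraries and 6.42 for the 12 lung regulators. The members above the median of all genes numbered 19 of 36, where the background is 50% by construction. At least 1 shared distal region was present at 35 of 36 members, against 84.9% of all genes. Of the 14602 genes open in all 4 libraries, only 608 had none, so the members were close to other open genes here.

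The members differed widely among themselves. E2f2 had 20 shared distal regions (8.94 per 100 kb), Mki67 had 19 (8.38) and Mcm2 had 18 (8.36). Mcm3 had none, Pola1 had 2 (0.379) and Cdc20 had 1 (0.489). The helicase genes other than Mcm2 and Mcm5 thus had at most 2 each, and the cyclins Ccna2, Ccnb1 and Ccnb2 had 2 each. Gins2 (7.22 per 100 kb), Cdt1 (5.85), Birc5 (5.81), Ccne1 (5.25) and Top2a (5.19) were also high. Ccnd1 had 10 shared distal regions and Ccnd2 had 6, or 4.76 and 2.64 per 100 kb.

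Most of these regions lay outside the members. Counted per member, 234 shared distal regions were found, of which 8 touched the member's own span, 110 touched only the span of another protein-coding gene and 116 lay in no gene. The rule leaves little room in a short gene, since a region had to lie more than 2 kb from any gene end. The members' median length was 14.1 kb, against 17.2 kb for all genes, and 100 kb was searched on either side. No such count was made over all genes. Of the 19 regions around Mki67, 10 lay in Ptpre, and of the 12 around Cdt1, 7 lay in Piezo1. Of the 15 around Gins2, 8 lay in Gse1. All 10 around Ccnd1, 10 of 11 around Ccne1 and all 6 around Rrm2 lay in no gene. A region within 100 kb need not act on the member.

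**Figure D5:**
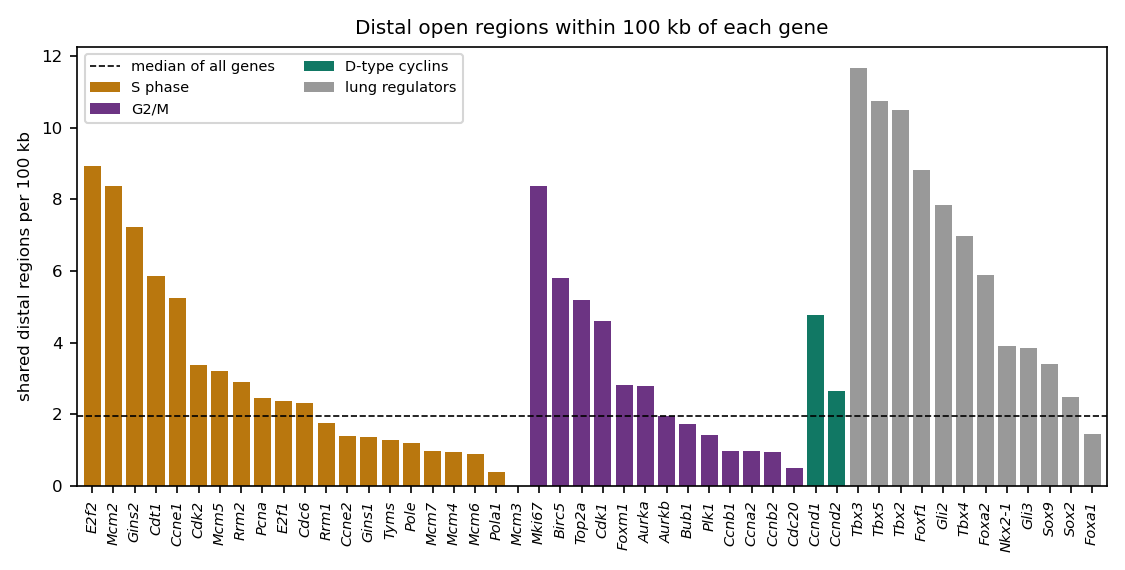
Shared distal regions per 100 kb searched (vertical axis) for each member, by phase, and for 12 lung regulators, with the median of all genes (1.95) as a dashed line. E2f2, Mki67 and Mcm2 had more than 8 per 100 kb and Mcm3 none, while the lung regulators had a median of 6.42.

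The strongest shared distal region was weaker than the member's own gene-end peak in all 4 libraries at 28 of 35 members and stronger in all 4 at Ccne1, Aurka, Bub1 and E2f2. No such count was made over all genes, so these counts are not shown to be particular to the members. Near Ccne1 the strongest region lay at chr7:38083810-38088299, in no gene and 9.685 kb from Ccne1, at the 98.9th, 99.6th, 99.6th and 99.7th percentile. Near Aurka it lay at chr2:172409862-172416195, in the span of Cass4, with a mean of 98.8 ± 0.337 (SD, n = 4). Near Bub1 it lay at chr2:127853920-127855290, in Acoxl and 22.1 kb from Bub1, at 99.2, 98.5, 99.3 and 97.8. The region of E2f2, at chr4:136179722-136182427, was inside the gene and stood at 92.0, 94.98, 95.6 and 96.2, above the peak at its start in each library. It overlapped a further E2f2 promoter in the RefSeq table. The order differed between libraries at Mcm5, Tyms and Top2a. Near Tyms the strongest region, in Garem2, stood at 89.7, 91.4, 93.0 and 89.8, above the Tyms peak in replicates 1 to 3 and below it in replicate 4. At the other end of the range, the strongest regions of Mcm4 (55.7 ± 14.7, SD, n = 4), Mcm7 (55.6 ± 12.3) and Mcm6 (64.0 ± 16.1) were far below the gene-end peaks of these helicase genes.

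Other genes of the cell cycle were nearly all open too. Of 98 genes listed beside the members, 94 had a gene-end peak in all 4 libraries, where 66.7% of all genes did. They were 35 of 38 other replication genes, 32 of 32 other mitotic genes and 27 of 28 other G1 regulators. Their median percentile was 95.3, 97.7, 97.8 and 97.4 in replicates 1 to 4. The highest were G1 regulators, with Cdkn2d, an inhibitor of the kinases CDK4 and CDK6, at 99.97 ± 0.0067 (SD, n = 4), Lin52, a subunit of the DREAM complex, at 99.94 ± 0.0145, and Cdk4 at 99.8 ± 0.196.

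The other 4 were open inside the gene instead. Orc1, Orc4 and Skp2 lacked a gene-end peak in all 4 libraries and Rfc1 had none in replicate 1. Orc1 and Orc4 encode subunits of the origin recognition complex, Rfc1 a subunit of the clamp loader, and Skp2 a ubiquitin ligase subunit. Each of the 4 had a peak in every library at a RefSeq promoter inside the annotated span. That promoter was 3.75 kb from the annotated start in Orc1, where the peak stood at 96.0, 97.3, 98.4 and 97.4. It was 2.67 to 3.64 kb from it in Orc4, under a peak at 99.0, 99.5, 99.5 and 99.4, and 2.98 kb from it in Rfc1 (90.8, 95.7, 97.1 and 95.3). In Skp2 the promoter with a peak was 15.0 kb from the annotated start and stood at 95.1, 95.1, 95.6 and 96.3, while the promoter at the start itself had no peak in any library.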

How the data were processed

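ATAC-seq of 4 lung libraries was read from the authors' deposited narrowPeak lists, 1 per library, called without pooling as far as the lists show. The submitters' processing notes name Trim Galore, Bowtie2 2.5.2, SAMtools 1.18, bedtools 2.31.0 and MACS3 3.0.1, with mm10. Each deposited peak carries a fold enrichment (a ratio), a −log10 p, a −log10 q, a score and a summit. The deposited score only restates −log10 q, multiplied by 10 and truncated, so it entered nothing below.

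Peaks on other contigs (1245 to 1814 per library) were left out. Fold medians differed between libraries, so fold was ranked to a percentile within its own list (Python 3.11.15, pandas 2.3.3). Read depth is not given in the sources used here. Gene ends and 300-base promoters came from RefSeq (GRCm38.p6), and 154 of 154 listed genes matched by symbol. The members and lists were chosen with earlier results of these data known. The genes given with values in every library were the 3 highest and 3 lowest of each phase by mean percentile, the D-type cyclins and the genes with the 3 highest and 3 lowest distal densities. Values of further members, and the 4 promoters printed, were picked after their values were seen. The ranking and windows were tested on simulated data. Alternatives were a stricter q (−log10 q of 5), lists of equal length, other windows and reaches, the gene start alone and leaving out each library. A further alternative left out Ccna2, Cdk2 and Foxm1.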

Additional observations from a re-analysis of the deposited data

Results flagged for a closer look

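Replicate 1 stood apart from the other libraries at a number of members. In sets of 4 libraries, a value was singled out when its gap to the nearest other library, divided by the range of the set, exceeded Dixon's 95% critical value. Of 79 sets, 15 met this, all through a low value of replicate 1. Chance gives about 1 in 20 for independent sets. These sets share their 4 libraries, so that rate is no yardstick for the 15. The S-phase median percentile was among the 15, at 96.8 in replicate 1.

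Among S-phase genes the gene-end percentile of replicate 1 was apart at E2f2 (77.4), Tyms (79.3), Mcm2 (95.7), Ccne2 (95.9), Pole (96.0), Mcm5 (96.3) and Pcna (98.4). Among G2/M genes it was apart at Ccnb2 (90.4), Foxm1 (91.3), Ccnb1 (96.2) and Cdk1 (96.4). The number of peaks within 100 kb was apart in replicate 1 at Mcm2 (46 peaks), Birc5 (43) and Mcm7 (17). Replicate 1 was the lowest library in percentile at 33 of 36 members and in peaks within 100 kb at 34 of 36. The all-gene medians were lowest there too, at 90.5 against 95.1 to 95.5 in percentile. In peaks within 100 kb they were 17 against 26 to 31. The share of all genes that were lowest or apart in replicate 1 was not computed, so these counts are not shown to be particular to the members. Replicate 1 also had the shortest list and the highest median fold, 8.99, and its peak names carried the word Frais in place of Frozen. The part of these in the low values was not tested.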

How the results depend on the processing

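No alternative reversed the S-phase to G2/M difference among the members. All 36 members had a gene-end peak in every library under the stricter q, lists of equal length and windows of 0.5 and 2.5 kb. When the summit itself had to lie in the window, 34 did, without Ccne2 and Ccnd1. Keeping only peaks with −log10 q of 5 or more gave a members' median percentile of 95.7, an S-phase minus G2/M difference of 2.85 points and a median of 16.4 peaks within 100 kb, where the all-gene value was 13.25. With lists of equal length there were 23.6 peaks within 100 kb (all genes 18.75), and within 50 kb there were 20. The difference between phases was 0.792 points at the gene start only, and 0.792 at the gene start with the summit in the window, an alternative chosen after seeing the data. The same 26 genes read at both ends, also chosen after seeing the data, gave 1.24 points. Leaving Ccna2, Cdk2 and Foxm1 out of the classes gave a difference of 1.42 points. Regions shared by at least 3 of 4 libraries gave a distal median of 4.32 per 100 kb. This cannot be set against the all-gene value of the main rule, since a looser rule counts more regions at any gene.

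Leaving out each library in turn kept 36 members open, with a members' median percentile from 97.4 to 98.1. The difference between phases was 1.32 to 1.81 points. Peaks within 100 kb numbered 31.3 to 40 and the distal median was 2.44 to 3.49, both highest without replicate 1. In that setting the all-gene medians were 28.3 peaks within 100 kb and 3.11 shared distal regions per 100 kb. No paired analysis was possible because the 4 libraries form 1 group. Peak lists hold no read counts, so the depth behind a percentile is unknown and no floor can be given.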
